A study of Mus musculus with 6 samples.

Results

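The interferon regulatory factors are a family of transcription factors, and 8 of its mouse genes were followed here in haematopoietic stem cells from mice given granulocyte colony-stimulating factor (G-CSF): Irf1, Irf2, Irf3, Irf4, Irf5, Irf7, Irf8 and Irf9. Each gene was taken by its symbol, as the probeset annotated to that symbol and no other, and where a gene had more than 1 such probeset the one with the highest mean over the arrays was used. All 8 had a probeset, out of 19938 genes named in this way, and 7 of the 8 passed the filter on dim probesets that left 14994 genes to test. Irf4 did not pass it. The G-CSF group was 3 arrays of KSL SLAM cells from mice that received 125 mcg/kg G-CSF by 2 subcutaneous injections per day for 7 days, and the PBS group was 3 arrays of the same fraction from mice given saline for 7 days. KSL SLAM cells are a marrow fraction enriched for haematopoietic stem cells, sorted for CD150, Sca-1 and c-Kit and against CD41, CD48 and lineage markers. Each array held RNA pooled from 5 to 10 mice, so the spread between arrays is that between pools. Neither strain, sex nor age is given in the labels.

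Interferon regulatory factors bind DNA through an amino-terminal domain with a conserved tryptophan repeat, and they recognise GAAA repeats found in the promoters of interferon-stimulated genes. Irf9 is part of the complex ISGF3, which carries the type I interferon signal. Irf3 and Irf7 are activated by kinases downstream of pathogen sensors and switch on interferon genes. Irf1 is itself induced by interferon gamma and competes with Irf2 for the same sites, while Irf4 and Irf8 bind with the myeloid and lymphoid factor PU.1. In haematopoiesis Irf8 is known for directing progenitors towards monocytes and dendritic cells and away from neutrophils, and Irf2 for restraining interferon signalling in stem cells.

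The promoters of the genes that hold binding motifs are shown first, because the G-CSF receptor signals through STAT3 and STAT proteins bind the GAS motif TTCNNNGAA. That motif reads the same on both strands. It was searched together with a GAAA repeat, in which 2 copies of GAAA are separated by 2 bases of any kind, the core shared by interferon regulatory factor and ISGF3 sites, on both strands of RefSeq promoter windows (GRCm38.p6, 250 bases before to 50 after each start). All 8 genes had a promoter window, with 11 windows among them. The GAS motif was present in 3 of the 11 windows, 1 each of Irf1, Irf2 and Irf8, and in 8.3% of the 32851 windows in the table. The GAAA repeat was present in 1 of the 11, that of Irf2, and in 3.44% of all windows. The 250 bases before the start are given 5′ to 3′ for these 3 windows, with the motif letters in capitals. They lie on the plus strand at chr11:53769764-53770013 (Irf1), chr8:120736108-120736357 (Irf8) and chr8:46739495-46739744 (Irf2).
Irf1: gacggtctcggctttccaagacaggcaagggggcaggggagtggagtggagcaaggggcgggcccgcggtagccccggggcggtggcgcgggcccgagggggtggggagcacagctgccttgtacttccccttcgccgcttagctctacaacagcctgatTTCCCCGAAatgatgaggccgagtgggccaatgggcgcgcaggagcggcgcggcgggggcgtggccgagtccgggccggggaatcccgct
Irf8: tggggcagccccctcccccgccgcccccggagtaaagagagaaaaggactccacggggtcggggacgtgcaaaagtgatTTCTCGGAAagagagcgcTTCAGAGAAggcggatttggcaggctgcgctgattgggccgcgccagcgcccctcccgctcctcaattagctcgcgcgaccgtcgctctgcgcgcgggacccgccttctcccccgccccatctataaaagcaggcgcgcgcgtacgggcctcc
Irf2: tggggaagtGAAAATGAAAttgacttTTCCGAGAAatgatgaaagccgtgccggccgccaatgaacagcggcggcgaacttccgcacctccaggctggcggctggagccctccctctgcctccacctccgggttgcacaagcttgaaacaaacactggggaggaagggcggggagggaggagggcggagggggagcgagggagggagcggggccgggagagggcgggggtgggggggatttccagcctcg
In Irf1 the match starts at position -90 from the transcription start. In Irf8 there are 2 GAS matches, starting at -171 and -153, and in Irf2 the GAAA repeat starts at -241 and the GAS match at -224. These matches do not overlap each other. A match describes the letters only, and no binding was measured here.

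None of the 8 genes differed between G-CSF and PBS cells beyond the spread between arrays. By limma, 0 of the 7 tested genes passed at an adjusted p under 0.05, a threshold passed by 0.0267% of all genes tested. At an unadjusted p under 0.05 there were also 0 of 7, against 6.04% of all genes, and in 0 of 7 did the 3 arrays of 1 group all lie above those of the other, against 10.8% of all genes. The log2 differences (G-CSF minus PBS throughout) ran from -0.34 for Irf2 to 0.31 for Irf7, with 3 positive and 4 negative among the 7. Their median size without regard to sign was 0.13, next to 0.16 over all 14994 genes. The values per array follow as log2 intensity, in which a probeset's level can be compared between arrays but not with the level of another probeset.

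**Figure D1:**
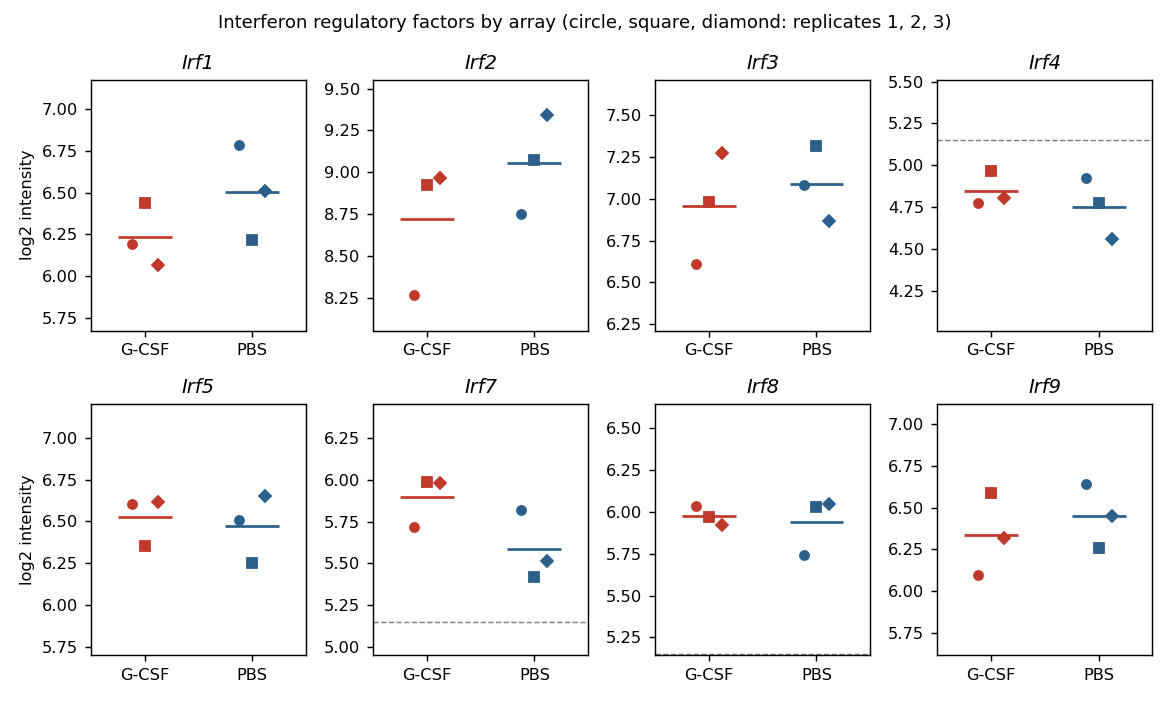
Log2 intensity of each of the 8 genes on each array (y axis, 1 panel a gene, every panel spanning the same range), with G-CSF at the left, PBS at the right, and a horizontal line at the group mean. The dashed line is the filter limit of 5.15. Every panel shows overlap between the groups, and Irf4 lies under the limit on all 6 arrays.

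Irf9, the DNA-binding subunit of ISGF3, was at 6.10, 6.59 and 6.32 on the G-CSF arrays, against 6.64, 6.26 and 6.45 on the PBS arrays. The lowest array was G-CSF replicate 1 and the highest PBS replicate 1, with the others interleaved. Its difference was -0.12 (SE 0.19, 95% interval -0.56 to 0.33, limma adjusted p = 0.97). Without G-CSF replicate 1 the difference was 0.00.

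Irf1, an activator that interferon gamma and STAT proteins induce, was at 6.19, 6.44 and 6.06 in G-CSF cells, against 6.78, 6.22 and 6.51 in PBS cells. Of the G-CSF arrays, 2 lay below every PBS array, and replicate 2 lay above PBS replicate 2. The difference was -0.27 (SE 0.20, interval -0.74 to 0.20, adjusted p = 0.95). A second probeset of Irf1, annotated from a single mRNA clone, was at 5.91, 6.33 and 5.84 with G-CSF, against 6.69, 6.26 and 6.32 with PBS. It ordered the arrays in much the same way, with G-CSF replicate 2 the only G-CSF array inside the PBS range, and differed by -0.40 (SE 0.21). Neither probeset passed, and in both the mean was lower in G-CSF cells.

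Irf2, which competes with Irf1 and mainly represses, was at 8.26, 8.92 and 8.97 in G-CSF cells, against 8.75, 9.07 and 9.34 in PBS cells. G-CSF replicate 1 was the lowest array and PBS replicate 3 the highest, and PBS replicate 1 lay below 2 of the G-CSF arrays. At -0.34 (SE 0.25, interval -0.93 to 0.25, adjusted p = 0.952) this was the largest difference in size among the 8, larger than that of 79.1% of all genes tested. Its spread was also the widest of the 7, with an SD of 0.39 in G-CSF and 0.30 in PBS arrays (n = 3 each). Leaving out G-CSF replicate 1 brought the difference to -0.11.

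Irf3, a latent factor that is activated by phosphorylation after RNA or DNA sensing, was at 6.61, 6.98 and 7.28 with G-CSF, against 7.09, 7.32 and 6.87 with PBS. Both groups spread over much of the same range, the difference was -0.13 (SE 0.22, interval -0.65 to 0.38, adjusted p = 0.97), and it was 0.04 without G-CSF replicate 1. Irf3 is known to be controlled mainly through phosphorylation, which arrays do not measure.

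Irf7, the interferon-inducible amplifier of type I interferon production, was the gene of the family with the smallest p. It was at 5.72, 5.99 and 5.98 in G-CSF cells, against 5.82, 5.42 and 5.52 in PBS cells. G-CSF replicates 2 and 3 lay above every PBS array, while G-CSF replicate 1 lay below PBS replicate 1. The difference was 0.31 (SE 0.18, 1.24-fold, interval -0.10 to 0.73, adjusted p = 0.932), and by p Irf7 ranked at 1892 of the 14994 genes tested. Its values lay not far above the filter limit of 5.15. The deposited table has no detection call, so how far this signal stood above background is not known here.

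Irf5, which acts downstream of Toll-like receptors on inflammatory cytokine genes, was at 6.61, 6.35 and 6.62 in G-CSF cells, against 6.51, 6.25 and 6.65 in PBS cells. In both groups replicate 2 was lowest and replicate 3 highest, and the difference was 0.06 (SE 0.17, interval -0.35 to 0.46, adjusted p = 0.996).

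Irf8, the partner of PU.1 in monocyte and dendritic cell development, had the smallest difference of the family. It was at 6.04, 5.97 and 5.92 with G-CSF, against 5.74, 6.03 and 6.05 with PBS, with all 3 G-CSF arrays inside the PBS range. The difference was 0.04 (SE 0.16, adjusted p = 0.999), and its 95% interval of -0.33 to 0.40 corresponds to 0.795-fold to 1.32-fold. Only 13.1% of all genes tested had a smaller difference in size. Like those of Irf7, the Irf8 values lay not far above the filter limit. How far the Irf8 signal stood above background is likewise not known here, so the interval applies to the measured signal only.

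Irf4, the PU.1 partner of B cells, plasma cells and some dendritic cells, was at 4.77, 4.96 and 4.80 in G-CSF cells, against 4.92, 4.77 and 4.56 in PBS cells. All 6 values lay under the filter limit, so Irf4 was fitted with the filter off. There its difference was 0.09 (SE 0.16, interval -0.29 to 0.47, limma adjusted p = 0.987 over 19938 genes, of which 0.0201% passed). Of the 11 measured markers of B lymphocytes and plasma cells, in which Irf4 is best known, 8 passed the filter and 2, Cd79a and Ebf1, were at or under the limit on all 6 arrays. The summed intensity of the 11 was 560 to 993 with G-CSF against 598 to 1086 with PBS. Of the 8 that passed the filter, Vpreb1 varied most within both groups, with an SD of 1.74 in G-CSF and 1.71 in PBS arrays (log2).

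**Figure D2:**
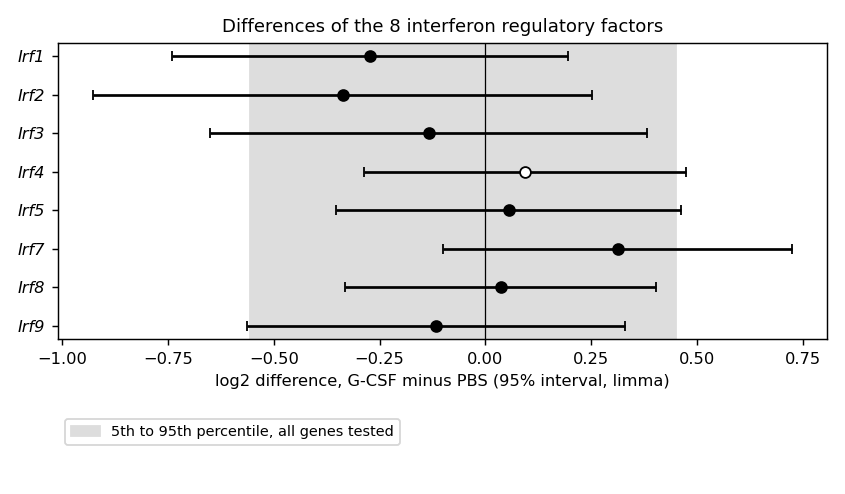
Log2 difference between G-CSF and PBS cells (x axis) with its 95% limma interval for each of the 8 genes. The open circle is Irf4, fitted with the filter off, and the grey band runs from the 5th to the 95th percentile of all genes tested (-0.56 to 0.45). All 8 intervals include 0 and all 8 points lie inside the band.

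The intervals differ from gene to gene. Among the 7 tested genes the lower bounds ran from 0.526-fold (Irf2) to 0.932-fold (Irf7), and the upper bounds from 1.14-fold (Irf1) to 1.65-fold (Irf7). For each gene, a change inside its own interval is not shown to be absent. In bulk RNA, fewer cells with a transcript and less transcript per cell cannot be told apart.

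**Figure D3:**
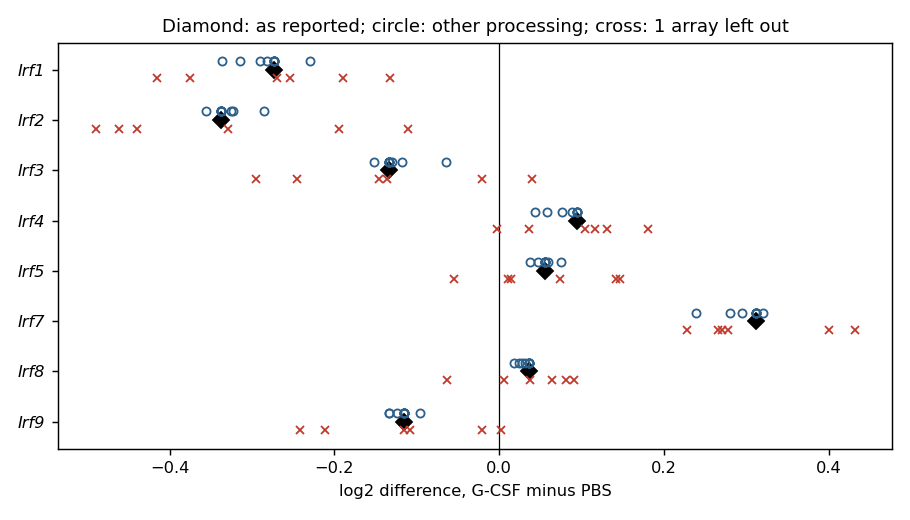
Log2 difference between G-CSF and PBS cells (x axis) for each of the 8 genes as reported (diamond), under up to 10 other ways of processing (circles) and with 1 array left out (crosses). Irf1 and Irf2 stay below 0 and Irf7 above 0 throughout, while the crosses of Irf3, Irf4, Irf5, Irf8 and Irf9 fall on both sides of 0.

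With 1 array left out, the differences of Irf7 ran from 0.23 to 0.43, those of Irf1 from -0.42 to -0.13 and those of Irf2 from -0.49 to -0.11. For Irf2 the highest value came without G-CSF replicate 1, whose Irf2 level was the lowest of all arrays.

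Ratios between the genes within each array were also examined, over the 21 pairs of the 7 tested genes. The groups did not overlap in 2 of the 21, a share near the 10.8% of single genes, and the values of these 2 are given as a description, chosen for that reason. The log2 ratio of Irf1 to Irf7 was 0.47, 0.45 and 0.08 on the G-CSF arrays, against 0.96, 0.80 and 1.00 on the PBS arrays, a difference of -0.58. That of Irf7 to Irf9 was -0.38, -0.60 and -0.34 with G-CSF, against -0.82, -0.84 and -0.93 with PBS, a difference of 0.43. An exact two-sided permutation test of 3 against 3 arrays cannot go below p = 0.1, the value both pairs had (0.7 after adjustment over the 21), so it could not have called either.

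As a description of the patterns over the 6 arrays, the gene most like each of the 7 was found by the smallest root mean square difference between log2 values centred on each gene's mean. It was Tnpo1 for Irf7 (0.022), Tcirg1 for Irf5 (0.021), Serpina10 for Irf8 (0.036), Kdm5c for Irf9 (0.045), Eef1b2 for Irf2 (0.050), Zbtb8a for Irf1 (0.054) and Drc1 for Irf3 (0.058), each out of 14022 genes.

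The genes around the family were described from lists of the same pathway, arranged by role. Of 142 listed genes 114 were tested, 0 passed after adjustment by limma, and 5 had a higher and 7 a lower level at an unadjusted p under 0.05 (2.73% and 3.3% of all genes). The groups did not overlap in 16 of the 114, against 10.8% of all genes. Isg15 had no probeset with a single symbol and is not analysed here.

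**Figure D4:**
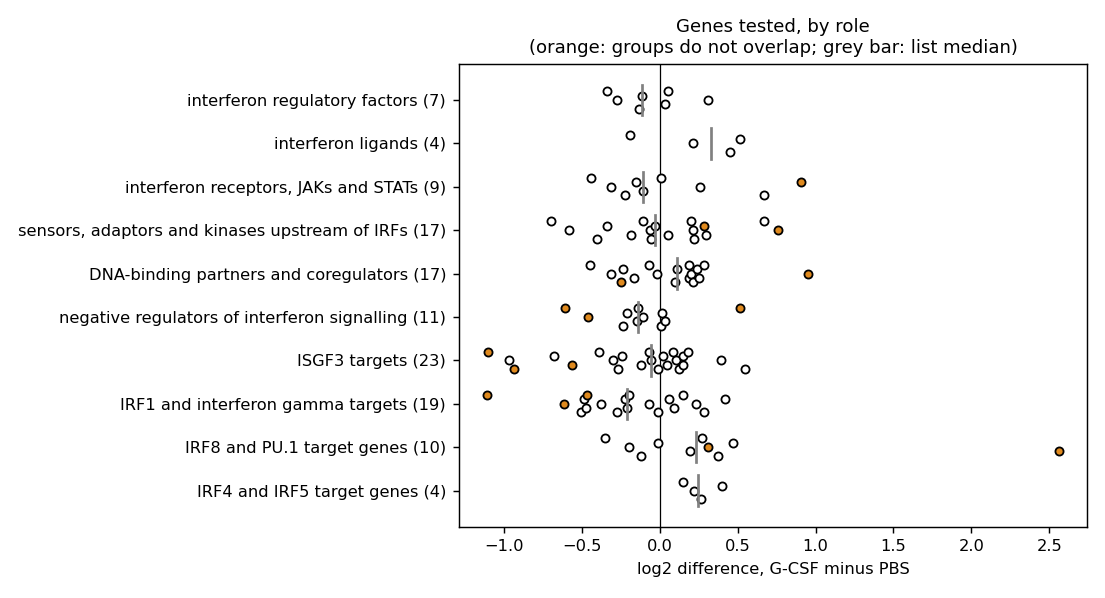
Log2 difference between G-CSF and PBS cells (x axis) for every tested gene of the family and of the lists around it (rows, number of genes tested in brackets). Orange points are genes whose groups do not overlap, and the grey bar is the median of the list. The family's 7 points lie between -0.34 and 0.31, while Cybb lies at 2.56 and Ifit3 and Iigp1 at -1.10 and -1.11.

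Interferon genes themselves gave no signal that separated the groups. Of 10 listed ligands 4 were tested, 3 with positive and 1 with negative differences, and Ifnb1 (interferon beta) was among those under the filter limit. Ifna2 differed by 0.45 (SE 0.22), Ifnz by 0.51 (SE 0.33) and Ifng by -0.19 (SE 0.16). Interferon alpha genes are close paralogs whose probesets may share signal.

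Among receptors, kinases and STAT factors, 9 of 10 genes were tested and the groups separated in 1 of the 9, a share near the 10.8% of all genes. Stat3, the main STAT factor of the G-CSF receptor, was at 8.70, 8.94 and 8.56 with G-CSF, against 8.08, 7.87 and 7.53 with PBS. The difference was 0.91 (SE 0.20, limma adjusted p = 0.325), with no PBS array as high as any G-CSF array. The interferon receptor subunits Ifngr1 (0.67, SE 0.37) and Ifnar1 (0.26, SE 0.17) overlapped between the groups. Their partner subunits Ifngr2 (-0.44, SE 0.30) and Ifnar2 (-0.15, SE 0.30) had negative differences, also with overlap. The list's median was -0.11, next to 0.00 over all genes.

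Upstream sensors, adaptors and kinases had 8 positive and 9 negative differences among 17 tested genes (median -0.03). The genes with the smallest p were Traf6, the ubiquitin ligase that links MyD88 signalling to Irf5 and Irf7 (-0.70, SE 0.28), Slc15a4, an endolysosomal transporter needed for Irf5 activation (-0.58, SE 0.26), and Cgas, the cytosolic DNA sensor (0.67, SE 0.30). In none of these 3 did the groups separate. They did in Myd88 (0.76, SE 0.35), the adaptor of most Toll-like receptors, and in Tlr9 (0.28, SE 0.17), both higher with G-CSF and both named after their values were seen. These were 2 of the 17, a share near the 10.8% of all genes. Cgas was under the filter limit on all PBS arrays and on 1 G-CSF array.

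Of the DNA-binding partners and coregulators, 17 of 18 were tested (median 0.11), and the groups separated in 2 of the 17, a share near the 10.8% of all genes. Spi1, which encodes PU.1, was at 7.06, 8.32 and 7.26 in G-CSF cells, against 6.36, 6.53 and 6.91 in PBS cells. The groups did not overlap, and the difference of 0.95 (SE 0.34, adjusted p = 0.749) did not pass. Without G-CSF replicate 2 it was 0.56. The acetyltransferase gene Crebbp differed by -0.25 (SE 0.15), with every G-CSF array the lower, and Irf2bpl, which encodes a protein related to the Irf2-binding corepressors, by -0.31 (SE 0.17) with overlap.

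Targets of Irf8 and PU.1 had 6 positive and 4 negative differences among 10 tested genes (median 0.23). Separated groups were found in 2 of the 10, against 10.8% of all genes. Cybb, the gp91phox subunit of the phagocyte oxidase, was at 9.95, 10.53 and 10.45 with G-CSF, against 7.36, 9.08 and 6.81 with PBS. It differed by 2.56 (SE 0.54, adjusted p = 0.311) with no overlap. Ctss (cathepsin S) differed by 0.47 (SE 0.20) and Csf1r, the macrophage colony-stimulating factor receptor, by 0.31 (SE 0.15), the last without overlap. Cybb and Spi1 are also expressed by neutrophils and their progenitors, whose markers were higher in the same arrays. In 15 of 16 neutrophil and promyelocyte markers every G-CSF array was above every PBS array, against 5.77% of genes, and the summed intensity of the 16 was 31734 to 40928 with G-CSF against 10355 to 17644 with PBS. The exception was Ly6g (-0.19). By limma 0 of the 16 passed after adjustment (smallest adjusted p = 0.112). The part of neutrophils and their progenitors in the values of Cybb and Spi1 was not tested.

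Genes that interferons and ISGF3 induce were mixed, with those of smallest p on the lower side in G-CSF cells. Among 23 ISGF3 targets 10 differences were positive and 13 negative, with a median of -0.06. Ifit3, an antiviral tetratricopeptide protein gene, was at 5.80, 4.82 and 5.07 with G-CSF, against 6.22, 6.08 and 6.69 with PBS (-1.10, SE 0.29, adjusted p = 0.455). Rsad2 (viperin) differed by -0.56 (SE 0.23) and Ifit2 by -0.94 (SE 0.40). Leaving out G-CSF replicate 2 brought Rsad2 to -0.36, and leaving out PBS replicate 3 brought Ifit2 to -0.47. In these 3 genes, and in no other of the 23, every G-CSF array was below every PBS array, a pattern found in 5.05% of genes. Ifit2 was at 5.16, 5.17 and 4.63 with G-CSF, against 5.28, 5.63 and 6.86 with PBS. Ifit3 on G-CSF replicates 2 and 3 and Ifit2 on G-CSF replicate 3 lay under the filter limit. Ifit2 on G-CSF replicates 1 and 2 lay just above it. How far the Ifit2 and Ifit3 signals stood above background is not known here, so their differences apply to the measured signal only.

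Targets of Irf1 and interferon gamma had 6 positive and 13 negative differences among 19 tested genes, with a median of -0.21. In 3 of the 19 every G-CSF array was below every PBS array, against 5.05% of all genes. Iigp1, an immunity-related GTPase gene, was at 6.82, 6.25 and 6.62 with G-CSF, against 7.22, 7.64 and 8.15 with PBS (-1.11, SE 0.27, adjusted p = 0.403). The guanylate-binding protein gene Gbp3 (-0.61, SE 0.21) and Tapbp, the peptide-loading protein tapasin (-0.47, SE 0.22), were likewise lower on all G-CSF arrays than on any PBS array. Without PBS replicate 2 the difference of Tapbp was -0.28. The chemokine gene Cxcl10 differed by 0.24 (SE 0.32) with overlap. Irf1 itself was lower on average (-0.27) but overlapped between the groups. Targets of Irf4 and Irf5 gave 4 tested genes of 8, among them Tnf (0.22, SE 0.18), Il23a (0.27, SE 0.22) and Il12a (0.40, SE 0.34), none with separated groups.

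Negative regulators were split. Socs3, the feedback inhibitor induced by STAT3, was at 6.99, 7.05 and 7.01 with G-CSF, against 6.20, 6.61 and 6.70 with PBS (0.52, SE 0.18, adjusted p = 0.723). With the mean of all its probesets the Socs3 difference was 0.25. Usp18, which is induced by type I interferon and removes ISG15 from proteins, was at 5.57, 5.37 and 5.69 with G-CSF, against 5.94, 6.17 and 5.91 with PBS (-0.46, SE 0.16, adjusted p = 0.741). Trim21, an interferon-inducible ubiquitin ligase that targets interferon regulatory factors, differed by -0.61 (SE 0.22), and by -0.40 without PBS replicate 3. The groups separated in these 3 of the 11 tested regulators, which are also the 3 with the smallest p, against 10.8% of all genes. All G-CSF arrays were the higher ones in Socs3 (5.77% of genes) and the lower ones in Usp18 and Trim21 (5.05%).

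Over the whole series, the arrays' median intensities lay from 56.2 to 61.7. Pairs of arrays from 1 group had rank correlations across genes of 0.861 to 0.895 (Spearman), and pairs of a G-CSF with a PBS array 0.836 to 0.892. Kit, the c-Kit receptor of the gate, differed by -0.98 (SE 0.23), and Procr, a stem cell surface marker, by -0.50 (SE 0.28). The summed intensity of 16 monocyte and dendritic cell markers was 2560 to 3315 with G-CSF against 1468 to 2587 with PBS. Its brightest member was Lyz2 (log2 mean 10.77 against 9.61), which neutrophils also express. Of the 13 tested markers 8 had positive and 5 negative differences, H2-Aa, H2-Ab1 and Cd74 among the negative ones. In 5 of the 13 every G-CSF array was above every PBS array, against 5.77% of all genes. These were Lyz2, Ccr2 (0.86), F13a1 (0.72), Cd14 (0.44) and Csf1r (0.31). After adjustment 0 of the 13 passed (smallest limma adjusted p = 0.477). The sum was 510 to 588 with G-CSF against 499 to 570 with PBS for 11 T and NK lymphocyte markers, 3635 to 5152 against 4516 to 5822 for 11 stem cell markers, and 1083 to 1307 against 1438 to 2106 for 10 erythroid and megakaryocyte markers. The brightest gene of the last list was Car2 (log2 mean 9.01 against 9.79). Of its 9 tested markers 6 had negative and 3 positive differences. In 3, Pf4 (-1.92), Mmrn1 (-1.52) and Car2 (-0.78), every G-CSF array was below every PBS array, against 5.05% of all genes. Itgb3 (0.45) was higher on every G-CSF array than on any PBS array. After adjustment 0 of the 9 passed (smallest limma adjusted p = 0.260). For the 6 genes Kit, Slamf1, Cd48, Itga2b, Cd34 and Flt3 the sum was 1245 to 1493 against 1652 to 2052. CD34 and Flt3 are not among the markers of the sort given above, and the gene of Sca-1 was not in this list. The sum adds genes sorted for to genes sorted against, and Kit was its brightest (log2 mean 9.04 against 10.01). Of the 6, only Kit had groups that did not overlap. The other 5 differed by -0.20 (Slamf1) to 0.35 (Flt3). Mpo (2.47, SE 0.45), S100a8 (0.95, SE 0.20) and Cd3e (0.07, SE 0.19) were the other defining markers tested. After adjustment Mpo, S100a8 and Kit did not pass (limma adjusted p = 0.257, 0.307 and 0.374). S100a8, an abundant neutrophil transcript, was at 13.03 ± 0.14 with G-CSF and 12.08 ± 0.31 with PBS (mean log2 intensity ± SD, n = 3 each), although the gate sets lineage-positive cells aside. Whether these shifts in other cell types' markers bear on the family's values was not tested.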

How the data were processed

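Intensities of 35554 probesets on 6 MoGene 1.0 ST arrays (3 G-CSF, 3 PBS) were deposited after RMA by the authors, per the submitters' processing notes. The sources used here name neither the software nor which arrays were processed together. Values from 2.7 to 19069 showed that the deposited intensity was on a linear scale, so log2 was taken. Probesets were named through the platform annotation: 21789 carried a single symbol, 1621 more than 1, and 12144 had no entry, and a gene was represented by its brightest probeset with 1 symbol. Probesets in the lowest 25% by mean over all 6 arrays (log2 up to 5.15) were left out. Groups were compared over 14994 genes with limma 3.58.1 (R 4.3.3, lmFit and eBayes), two-sided, with Benjamini-Hochberg adjustment and a threshold of 0.05. The fit was tested on simulated data. The 16 alternatives changed the filter, normalization, log offset, variance model, array weights, probeset rule, probesets tested or replicate block, or left out 1 array. The precision is limited by the number of arrays.

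The genes, lists and tests were chosen with earlier results of these data known. Pathway genes named are the 3 with the smallest p in each list, plus Stat3, Spi1, Cybb and Cxcl10 whatever their result. Marker genes named were Mpo, S100a8, Csf1r, Cd79a, Cd3e, Kit and Procr. Ifnb1, Ebf1, Myd88, Tlr9, Ifngr2, Ifnar2 and the other marker genes named were added after their values were seen. Lists were matched by symbol, or by gene ID through RefSeq synonyms. Figures were drawn with matplotlib 3.10.9.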

Additional observations from a re-analysis of the deposited data

How the results depend on the processing

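Of the 8 interferon regulatory factors, 0 passed the threshold in any of the 16 alternatives in which they were tested, and their lowest limma adjusted p was 0.723, for Irf2 with the replicate number as a block. The directions of Irf1 (-0.42 to -0.13 over the alternatives), Irf2 (-0.49 to -0.11) and Irf7 (0.23 to 0.43) were kept in each alternative that could be run. Leaving out 1 array gave both signs for Irf3 (-0.295 to 0.039), Irf4 (-0.0022 to 0.180), Irf5 (-0.054 to 0.147), Irf8 (-0.064 to 0.090) and Irf9 (-0.242 to 0.0022), and among the named pathway genes for Cxcl10 (-0.111 to 0.534) and Il12a (-0.0015 to 0.642). The number of the 7 tested genes whose groups did not overlap was 0 to 2 with 1 array left out. Irf7 separated without G-CSF replicate 1 or PBS replicate 1, Irf1 without G-CSF replicate 2 or PBS replicate 2, and Irf2 without PBS replicate 1. In each case the array left out was one that had made the overlap, so the separation follows from leaving it out. The share of all genes that separate with 1 array left out was not computed, so these counts have no background beside them. Of 437 values for 28 named pathway genes, 435 kept their direction and 0 passed. With 1 array left out the differences of Cgas (0.37), Ifngr1 (0.31), Ifnz (0.22), Ifna2 (0.295), Ifng (-0.09), Il23a (0.12) and Tnf (0.12) came to these values at the smallest. With the lowest 50% of probesets left out, Irf4, Irf7 and Irf8 were not tested. Irf4 had 14 alternatives, each run with the filter off. Genes higher at the threshold, 4 as reported, numbered 12 with quantile normalization again, 2 with each array centred on its median, 2 with log2 of intensity plus 16, 0 with all probesets tested, and 0 to 6 with 1 array left out. The cause was not tested. The deviations of same-numbered arrays from their group means had correlations of 0.29, 0.02 and 0.19, and those of other pairs -0.28 to 0.10. G-CSF replicate 2 correlated best with PBS replicate 3. Whether same-numbered arrays shared more than a number was not tested. With the replicate block Irf7 differed by 0.31 (limma adjusted p = 0.823), and 5 genes were higher.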
